A study of Mus musculus with 4 samples.

Results

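Fasted small-intestinal crypts of mice given tetracycline were set against fasted crypts of mice given none, gene by gene, for 13194 genes out of the 24182 listed in both of the study's tables. Members were chosen by their measured level, as genes with a deposited mean of at least 50 normalized counts in both tables. Their fasted group means were rebuilt from the deposited mean and fold change, and each difference is the log2 of tetracycline over none, centred on the median over the members, which was 0.07 before centring. Because the 2 tables were scaled separately and the labels list 1 sample in each group, the fasted difference itself carries no test. It is described by size, and a gene is counted as higher or lower where the centred log2 reached 1, a doubling or halving of the level.

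The group without tetracycline was crypts of male C57BL/6J mice aged 9 weeks after 24 hours without food. The other group came from mice of the same sex, strain and age, fasted for the same time, that had received tetracycline, a broad antibiotic, for 21 days. The study's stated interest was in what removing a bacterium that the labels abbreviate as AKK does to expression in fed and fasted mice, and the matching fed groups (0 hours of fasting, without and with tetracycline) are used here only for comparison. Crypts are the pits of the gut lining that hold its stem cells. Here they were shaken off in buffer with a chelator and broken into single cells with trypsin, and no sort is described in the labels. The sequencing kit does not keep strand, so reads from overlapping genes cannot be told apart.

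The gut epithelium reads the bacteria above it. Bacterial products act on receptors in the epithelial cells, and on immune cells beneath that release interleukin-22 and interleukin-17, which act through STAT3 and NF-kappaB. The epithelium answers with secreted lectins of the Reg3 family, with reactive oxygen from the DUOX2 and DUOXA2 pair, with nitric oxide from NOS2 and with small proline-rich and gasdermin proteins. Germ-free and antibiotic-treated mice are known for low levels of Reg3g and Duox2 in the small intestine. In mixed tissue, fewer cells of a type and less RNA per cell cannot be told apart.

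Whole counts could be recovered from the deposited means for 13133 of the 13194 members, and showed 2 libraries in each group where the labels list 1 sample. The libraries cannot be tied to labelled samples, nothing says whether they came from separate mice, and they are given as single values, numbered so that library 1 has the larger size factor. The recovered counts came to 55970713 and 41280870 in the fasted libraries without tetracycline and to 52617104 and 41523969 in those with it. All 8 general epithelial markers (such as Epcam and Cdh1) were members, and the summed normalized counts of the 6 resolved ones lay between 235736 and 271521.

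The fasted libraries stood apart within their groups before any comparison between groups. Enterocyte markers, the absorptive cells of the villus, summed to 746897 and 277238 normalized counts without tetracycline and to 127190 and 794321 with it, over the 11 of 22 markers resolved in all 4 libraries. T lymphocyte markers ran the other way, at 25909 and 49588 without tetracycline and 88669 and 15106 with it, over 19 of 19 markers. B and plasma cell markers (11 of 12, with Tnfrsf17 at 0 in all 4) summed to 2610, 7025, 8602 and 978 in the same order, MHC class II genes to 5684, 11782, 18596 and 2554, myeloid markers (12 of 15) to 2119, 3270, 4911 and 1208, stromal markers (10 of 18) to 1394, 2323, 3159 and 1183, and red blood cell genes (5 of 7) to 43168, 62594, 129271 and 21142. In each of these lists the library values without tetracycline lay between those with it. Paneth and stem cell markers had the same order as the lymphocyte markers.

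**Figure D1:**
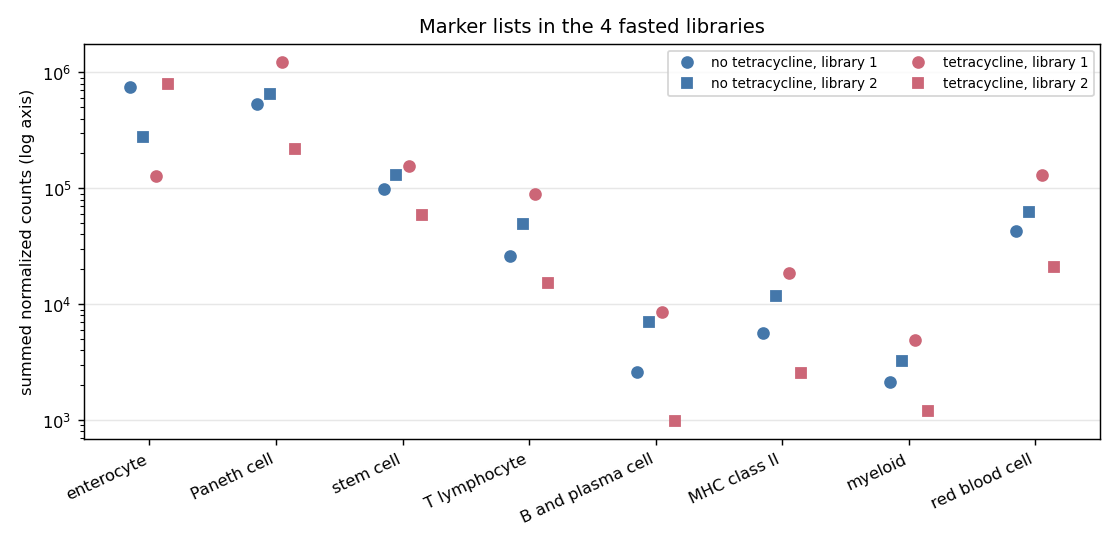
Summed normalized counts (log axis) of marker lists in the 4 fasted libraries, circles for library 1 and squares for library 2, blue without and red with tetracycline. The tetracycline libraries lie at the ends of each list, with enterocyte markers at 127190 and 794321, and the blue points lie between them.

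Across genes, the log2 ratio between the libraries of a group had an SD of 0.57 without and 0.9966 with tetracycline, and 6.52% and 22.1% of resolved members differed by at least 1 between libraries of the same group. Between groups the difference had an SD of 0.33, but it is taken on group means and is not the same measure. Because libraries of a group lay this far apart, each gene below is given by its library values. A gene is said not to overlap where both tetracycline libraries lie on the same side of both others after centring.

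Most genes differed little between the groups: 12139 members (92.0%) lay within 0.5 of the median. By at least 1, 57 members (0.432%) were higher and 144 (1.09%) lower with tetracycline, so that 71.6% of the 201 genes past 1 were lower. Centring on the 78 cytosolic ribosomal protein genes, whose median stood 0.19 above that of all members, gave 31 higher and 236 lower instead. With that centring a list median given below as between 0 and 0.19, such as those of the Reg, Paneth, replication, xenobiotic, mitochondrially encoded and oxidative phosphorylation lists, falls below 0. Of the genes past 1, 26 higher (0.198% of resolved members) and 66 lower (0.503%) had libraries that did not overlap. Of any size, 913 members (6.95%) lay above and 1134 (8.63%) below without overlap.

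Single libraries moved these counts. Of the 142 resolved lower genes, 126 (88.7%) were higher in library 1 than in library 2 without tetracycline, against 50.2% of all resolved members, and without that library 52 genes were lower, of which 32 belonged to the 142. Without library 2 of the same group 364 genes were lower and 217 higher, without library 1 with tetracycline 1087 and 221, and without library 2 with tetracycline 607 and 438. Of the 56 resolved higher genes, 38 (67.9%) were higher in library 2 than in library 1 with tetracycline, against 55.0% of all, and 22 of the 56 stayed past 1 without library 2. The share past 1 was 3.45% of the 2204 members with a smaller mean of 50 to 200, 1.86% at 200 to 1000, 0.760% at 1000 to 5000 and 0.892% of the 2242 at 5000 or more.

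**Figure D2:**
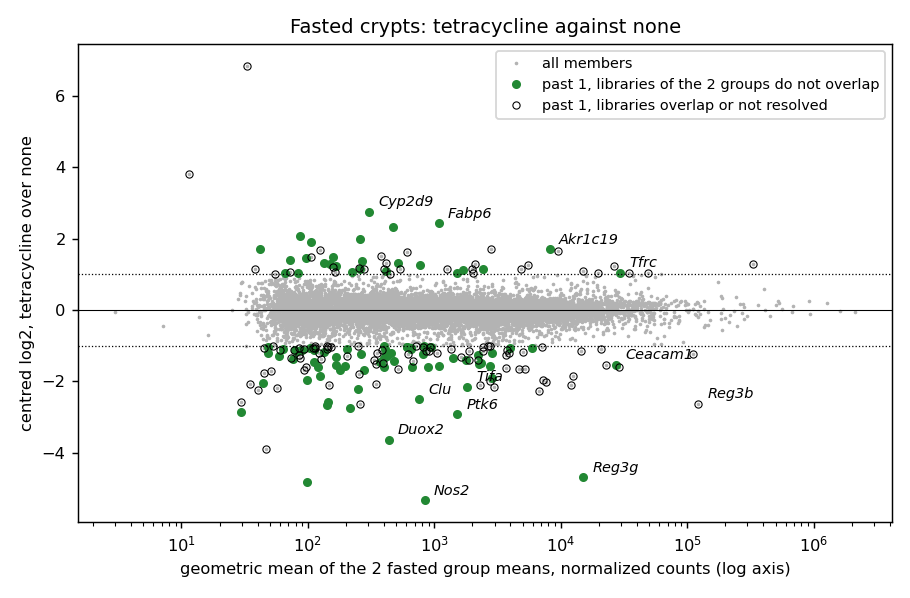
Centred log2 difference of tetracycline over none in fasted crypts against the geometric mean of the fasted group means in normalized counts (log axis), 1 point for each of 13194 members. Filled points are past 1 (dotted lines) with libraries that do not overlap, open points are past 1 with libraries that overlap or could not be resolved, and the lowest filled points are Nos2 at -5.34, Pde2a (uncertain, with reads split between 2 identifiers) at -4.82 and Reg3g at -4.68.

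Values near the limits were alike on each side. The 313 members whose smaller mean was 50 to 60 had an SD of 0.46 with 3.83% past 1, and the 438 genes at 40 to 50 that were left out had 0.49 and 4.34%. The least of the higher genes stood at 1.01 and the next below it at 0.99, and the least of the lower genes at -1.004 with the next at -0.9998.

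Nos2, Reg3g and Duox2 stood lowest with tetracycline among the genes of the defence and Reg lists. Nos2, the inducible nitric oxide synthase (ENSMUSG00000020826.10, chr11:78920787-78960254 on GRCm38), had 9071 and 1415 normalized counts in the libraries without tetracycline and 109 and 164 in those with it. Its group mean was 40.4-fold lower, a centred log2 of -5.34. Each tetracycline library lay below the lower of the other libraries, and without library 1 the difference was -3.46.

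Reg3g, a secreted lectin that kills Gram-positive bacteria (ENSMUSG00000030017.3, chr6:78466269-78468872), had 120465 and 28742 normalized counts without tetracycline and 1911 and 4180 with it. That was 25.7-fold lower (-4.68), and -3.32 without library 1. Reg3b, its close relative (ENSMUSG00000071356.8, chr6:78370657-78373466), had a group mean of 298003 without tetracycline, which could not be resolved into libraries, and 12148 and 89297 with it. Its group mean was 6.17-fold lower (-2.62), and whether the groups overlap is unknown. The other Reg members stood above 0: Reg4 stood at 0.11, Reg1 at 0.14 and Reg3a at 0.38, each with overlapping libraries, and the list's median over its 5 members of 7 was 0.11. Those signs turned with 1 library left out: without library 2 with tetracycline Reg1 stood at -0.70 and Reg3a at -0.52, without library 1 with tetracycline Reg4 stood at -0.48, and the list's median was -0.61 without library 2 with tetracycline and -0.22 without library 1 of the group without tetracycline. Reg2 and Reg3d were below the level filter.

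Duox2, the oxidase that makes hydrogen peroxide at the epithelial surface (ENSMUSG00000068452.9, chr2:122279247-122298449, minus strand), had 2604 and 393 normalized counts without and 127 and 127 with tetracycline. Duoxa2, which brings it to the membrane (ENSMUSG00000027225.8, chr2:122298900-122302885, plus strand), had 590 and 105 without and 56.8 and 57.8 with it. The annotated genes lie head to head, 450 bases apart. They were 12.4-fold and 6.38-fold lower (-3.63 and -2.67), and neither overlapped between groups. Without library 1 the differences were -1.72 and -0.96. Duoxa2 overlaps the annotated gene Duoxa1, with which unstranded reads can be shared.

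Alpk1 and Tifa act in 1 pathway, in which the kinase ALPK1 binds a sugar of the bacterial cell wall and phosphorylates TIFA to turn on NF-kappaB. The genes are neighbours on chromosome 3, 9277 bases apart. Alpk1 (ENSMUSG00000028028.12, chr3:127670310-127780527) had 839 and 253 normalized counts without and 93.8 and 77.0 with tetracycline, 6.70-fold lower (-2.74). Tifa had 5807 and 1693 without and 1057 and 720 with it (-2.15). Neither overlapped, and both stayed lower without library 1, at -1.65 and -1.01. Tifa overlaps the gene Ap1ar in the annotation.

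Promoters of 5 of these genes are shown because these genes were lower together. They are the 250 bases before and 50 after the RefSeq start on GRCm38.p6, 5′ to 3′ on the gene's strand. Capitals mark TTCNNNGAA, the palindromic core bound by STAT factors, which reads the same on either strand. The windows are chr6:78468825-78469124 (minus) for Reg3g, chr6:78370635-78370934 (plus) for Reg3b, chr3:127780478-127780777 (minus) for Alpk1, and chr2:122298178-122298477 (minus) and chr2:122298650-122298949 (plus) for the head-to-head pair Duox2 and Duoxa2.
Reg3g: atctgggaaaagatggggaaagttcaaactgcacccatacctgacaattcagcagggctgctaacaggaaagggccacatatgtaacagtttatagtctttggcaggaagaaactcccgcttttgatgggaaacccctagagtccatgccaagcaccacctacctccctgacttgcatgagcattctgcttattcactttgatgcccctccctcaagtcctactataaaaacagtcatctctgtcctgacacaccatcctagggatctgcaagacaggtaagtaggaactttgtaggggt
Reg3b: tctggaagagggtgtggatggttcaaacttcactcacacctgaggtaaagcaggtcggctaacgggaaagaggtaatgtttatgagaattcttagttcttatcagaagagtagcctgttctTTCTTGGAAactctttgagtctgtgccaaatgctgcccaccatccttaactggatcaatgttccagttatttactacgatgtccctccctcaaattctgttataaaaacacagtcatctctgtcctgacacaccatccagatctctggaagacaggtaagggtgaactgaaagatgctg
Alpk1: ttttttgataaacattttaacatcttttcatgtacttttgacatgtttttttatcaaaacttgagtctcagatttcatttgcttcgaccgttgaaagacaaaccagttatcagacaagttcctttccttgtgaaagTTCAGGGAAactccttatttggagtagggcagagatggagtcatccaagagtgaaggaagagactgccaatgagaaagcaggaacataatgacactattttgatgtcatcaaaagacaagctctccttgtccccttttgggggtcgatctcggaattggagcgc
Duox2: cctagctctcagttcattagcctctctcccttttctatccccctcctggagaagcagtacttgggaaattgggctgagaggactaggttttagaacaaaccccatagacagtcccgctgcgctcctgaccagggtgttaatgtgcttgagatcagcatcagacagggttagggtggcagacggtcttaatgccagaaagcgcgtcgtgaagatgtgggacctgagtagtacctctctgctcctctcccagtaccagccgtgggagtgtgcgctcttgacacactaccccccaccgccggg
Duoxa2: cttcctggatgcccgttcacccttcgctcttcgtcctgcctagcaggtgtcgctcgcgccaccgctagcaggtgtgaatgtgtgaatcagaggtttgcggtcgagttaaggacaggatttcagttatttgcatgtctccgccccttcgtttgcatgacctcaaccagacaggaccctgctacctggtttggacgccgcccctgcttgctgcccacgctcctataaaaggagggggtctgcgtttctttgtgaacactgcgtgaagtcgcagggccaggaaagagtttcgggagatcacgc
Reg3b holds the motif at position -129 and Alpk1 at -114 from the start, and the letters are not in the windows of Reg3g, Duox2 and Duoxa2, nor in the 2 windows of Tifa, which are not printed. The Nos2 promoter was not analysed here. The motif stood in 2726 of 32851 promoter windows of the reference table (8.30%), and by gene in 2582 of 27025 genes with a window (9.55%) and 839 of 10066 members (8.33%). It stood in 9 of 99 lower members with a window (9.09%), in 3 of 37 higher ones (8.11%) and in 3 of 21 members of the defence and Reg lists (14.3%). A match is a description of letters and not of binding.

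**Figure D3:**
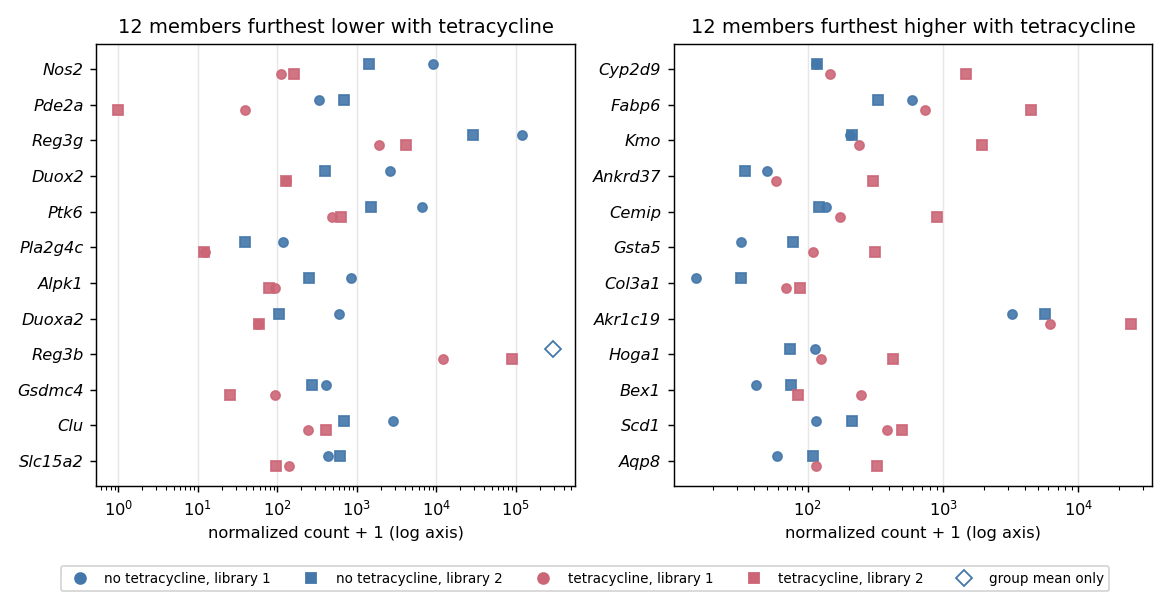
Normalized counts plus 1 (log axis) in each fasted library for the 12 members furthest lower and the 12 furthest higher with tetracycline by the naming rule, blue without and red with tetracycline, circles for library 1 and squares for library 2. In the left panel the red points lie left of the blue ones, and Reg3b is shown without tetracycline by its group mean of 298003 (open diamond). In the right panel most red squares lie far from the red circles.

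The list of microbiota-responsive epithelial defence genes had 22 of its 35 genes above the level filter. Of these, 12 were lower by at least 1 and 0 higher, against 1.09% and 0.432% of all members. Its median was -1.10, or -0.42 without library 1 of the group without tetracycline, and 21 of the 22 were below 0. Among the 21 resolved members 8 lay below without overlap, against 8.63% of all. The list was written with results of these data in view, so its count is no independent evidence.

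The gasdermin C genes, whose proteins form membrane pores in epithelial cells, had lower values in each tetracycline library than in either of the others. Gsdmc4 had 416 and 271 normalized counts without and 93.8 and 24.8 with tetracycline (-2.59), Gsdmc2 had 269 and 191 against 99.6 and 34.4 (-1.84), and Gsdmc3 had 46.8 and 43.0 against 37.9 and 8.25 (-0.9998, just short of 1). With 1 library left out Gsdmc4 lay between -3.87 and -1.88, Gsdmc2 between -2.82 and -1.21 and Gsdmc3 between -2.52 (without library 1 with tetracycline) and -0.25 (without library 2). Of the small proline-rich genes, which encode cross-linked and antibacterial proteins, Sprr1a had 95.4 and 48.4 against 41.1 and 23.4 (-1.22), and stood at -0.67 without library 1 of the group without tetracycline and -0.81 without library 2 with tetracycline. Sprr2a1, Sprr2a2 and Sprr2a3 stood at -1.40, -1.59 and -2.63 with overlapping libraries, and are near-identical copies among which reads can be split. For Sprr2a2 the library values were 85472 and 12729 without and 5188 and 29145 with tetracycline, so the second library of the first group lay between those of the other. Without library 1 of the group without tetracycline Sprr2a1 and Sprr2a2 lay above 0, at 0.66 and 0.35, and Sprr2a3 stood at -0.48.

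The rest of the list stood nearer to 0. Ido1, which degrades tryptophan, stood at -1.13 and Ccl20, a chemokine for lymphocytes, at -1.07, with overlapping libraries, and at -0.29 and -0.24 without library 1 of the group without tetracycline. The cytokine gene Il18 stood at -0.94, the peroxidase Gpx2 at -0.81, the transglutaminase Tgm2 at -0.73 and the fucosyltransferase Fut2 at -0.68. With 1 library left out Il18 lay between -2.42 and -0.22, Gpx2 between -1.37 and -0.36, Tgm2 between -1.37 and -0.22 and Fut2 between -1.14 and -0.04. Il18 overlaps the genes Bco2 and Tex12 in the annotation. Nlrc4 (-0.36), Pigr (-0.35), Ccl28 (-0.21), Nlrp6 (-0.16) and Noxo1 (0.06) completed it. Leaving out 1 library put Nlrc4 between -0.67 and -0.04 and Nlrp6 between -0.29 and -0.003. Ccl28 then lay between -0.47 and 0.07 and Noxo1 between -0.25 and 0.38. The enterocyte marker sum was 127190 and 794321 in the fasted tetracycline libraries. Of the defence genes above, Nos2, Sprr2a2 and Sprr2a3 were also higher in library 2 of that group. Duox2 and Duoxa2 were level, and Tifa, Sprr1a and the gasdermin C genes were lower there. The part of enterocyte markers in the difference was not tested.

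Of the 16 measured genes of the STAT3 pathway and its cytokine receptors, 2 were lower and 0 higher, against 1.09% and 0.432% of all members, with a median of -0.21 that stood at 0.01 without library 1 of the group without tetracycline. Socs3, the feedback inhibitor that STAT3 induces, had 2502 and 1166 normalized counts without and 501 and 790 with tetracycline (-1.58, no overlap). Bcl3, an NF-kappaB cofactor, had 3928 and 1758 against 1264 and 980 (-1.41, no overlap). Neither reached 1 without library 1 of the group without tetracycline, at -0.94 for Socs3 and -0.73 for Bcl3. Stat3 itself stood at -0.76, Nfkbiz at -0.81 and the interleukin-22 receptor Il22ra1 at -0.51, each with overlapping libraries, and without library 1 of the group without tetracycline at -0.12, -0.12 and 0.16.

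Of the 16 measured genes of bacterial ligand sensing none passed 1 in either direction. The list had a median of -0.23 and 13 of 16 members below 0. In 7 of the 16, the libraries with tetracycline both lay below the others, against 8.63% of all members. Among them were Tlr3, which binds double-stranded RNA (1546 and 1221 against 899 and 974, -0.63), Ly96, the partner of TLR4 (-0.49), the adaptor Tirap (-0.35) and Cd14 (-0.32). Myd88, the common adaptor, stood at -0.13.

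Interferon-stimulated genes were lower in part. Of 24 measured genes, 5 were lower by at least 1 and 0 higher, against 1.09% and 0.432% of all members, with a median of -0.43 and 20 of 24 below 0. Ifit1bl1 had 2311 and 732 normalized counts without and 329 and 732 with tetracycline (-1.59), and Oas2, an RNA-sensing synthetase, 123 and 57.0 against 31.3 and 46.8 (-1.29). Those were the 2 members below without overlap, against 8.63% of all, although for Ifit1bl1 the nearest libraries were level. Without library 1 of the group without tetracycline the median was -0.003, Ifit1bl1 stood at -0.55 and Oas2 at -0.63. Oasl2 (-1.32), Zbp1 (-1.41) and Isg15 (-1.20) overlapped, and without that library stood at -0.28, -0.47 and 0.05. In fed crypts the median of the same list was 0.35, with 0 lower and 3 higher, against 0.644% and 3.46% of all members there.

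Genes of the fetal-like and regenerative state of the epithelium, which is known from repair after injury, had a median of -0.64 over 13 of 18 genes, with 2 lower by at least 1 (1.09% of all members) and 4 below without overlap (8.63% of all). The median was -0.38 without library 1 of the group without tetracycline and -0.40 without library 2 with tetracycline. Clu, a secreted chaperone that marks revival stem cells (ENSMUSG00000022037.16, chr14:65968483-65981547), had 2864 and 681 normalized counts without and 243 and 414 with tetracycline. It was 5.67-fold lower (-2.50) and did not overlap, and stood at -1.14 without library 1. Ereg, a growth factor for the EGF receptor, stood at -1.60 with overlapping libraries, and at -0.53 without library 1 of the group without tetracycline. The growth factor Areg (111 and 111 against 62.5 and 82.5, -0.69), the annexin Anxa3 (-0.69) and Ccn1 (-0.64) lay below without overlap. Ly6a, the other common marker of that state, stood at 0.10, and between -1.44 and 0.89 with 1 library left out.

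Tuft cells, the chemosensory cells of the epithelium, had the largest share of members without overlap among the cell type lists. None of the 14 measured markers of 20 reached 1, but 13 of 14 were below 0 with a median of -0.45, and 10 of 14 lay below without overlap, against 8.63% of all members. Dclk1, a kinase that marks these cells, had 2718 and 2382 normalized counts without and 1962 and 1527 with tetracycline (-0.62). Trpm5, their cation channel, had 3143 and 2278 against 2013 and 1732 (-0.60), and Sh2d6 1603 and 1045 against 882 and 813 (-0.71). The regulator Pou2f3 stood at -0.22 with overlap. The median was -0.64 with ribosomal centring, -0.21 without library 2 with tetracycline and -0.30 without library 1 of the group without tetracycline.

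Goblet cell genes, of the mucus-making cells, had a median of -0.08 over 17 of 18 genes, and none passed 1. The gel-forming mucin Muc2 had 99123 and 65479 normalized counts without and 50501 and 54313 with tetracycline (-0.72), and Clca1, a mucus protease, 72516 and 50708 against 33968 and 50623 (-0.61), both without overlap, although the nearest Clca1 libraries were level. The regulator Spdef (0.10) and Rep15 (0.18) were not lower. Paneth cell genes had a median of 0.14, with 2 of 19 higher and 1 lower, against 0.432% and 1.09% of all members, and the median over the resolved ones became -1.51 without library 1 and 0.94 without library 2 with tetracycline. Mptx2, a pentraxin of these cells, had 5052 and 6248 without and 4414 and 1259 with tetracycline (-1.06, no overlap), and stood at -0.36 without library 2 with tetracycline. The defensin Defa20 had 30621 and 35943 without and 119676 and 23985 with it (1.04), high in 1 library alone and at -0.55 without it, and defensin genes are near-identical copies that can share reads.

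In the other cell programmes few genes passed 1, although library values within a group lay far apart. Stem cell markers had a median of -0.09 with none past 1, which became -0.81 without library 1 and 0.44 without library 2 with tetracycline, and Lgr5 had 1003 and 1168 normalized counts without and 1515 and 399 with tetracycline. The 24 genes of DNA replication and mitosis had a median of 0.01 and ranged from -0.24 to 0.27, none without overlap, and the median lay between -0.36 and 0.42 with 1 library left out. Enteroendocrine genes had a median of -0.11, with neurotensin (Nts) lower at -1.23 and overlapping, and at -0.13 without library 1 of the group without tetracycline. The enteroendocrine median lay above 0 without library 2 of either group. Enterocyte markers had a median of -0.19 over 22 genes, none past 1, which over the resolved markers became -1.925 without library 2 with tetracycline and 0.62 without library 1 of the group without tetracycline, with lactase (Lct) lowest at -0.95 (119650 and 27981 against 10035 and 69982). The 24 genes of fatty acid oxidation and ketogenesis had a median of -0.04 and none past 1, with Pdk4 (0.93) and Angptl4 (0.94) highest through library 2 with tetracycline.

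Proteins encoded by mitochondrial DNA were measured in all 13 genes, ranged from -0.25 to 0.26 and had a median of 0.02, none past 1. From lowest to highest they were ND3, COX2, ATP6, COX1, ND4, ND6, ND4L, ND5, ND1, ND2, ATP8, COX3 and CYTB. Nuclear subunits of oxidative phosphorylation (76 genes) had a median of 0.12 and mitochondrial ribosomal proteins (78 genes) of 0.0959, again with none past 1. With ribosomal centring the latter stood at -0.0906, so the direction of that list follows the scaling.

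**Figure D4:**
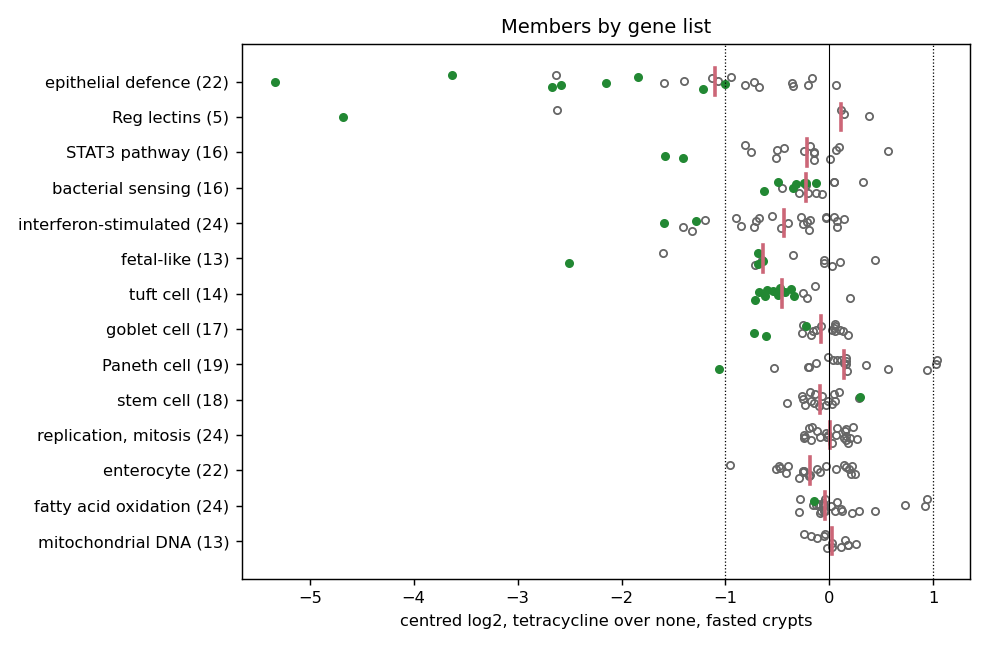
Centred log2 difference of tetracycline over none in fasted crypts for the members of 14 gene lists, the number of members in brackets, red bars for list medians and dotted lines at -1 and 1. Filled points have libraries that do not overlap between groups. The defence list has its median at -1.10 with points reaching to -5.34, tuft cell points are mostly filled with a median of -0.45, and replication genes lie between -0.24 and 0.27.

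Further genes among the 12 lowest by rule were Ptk6, Pla2g4c and Slc15a2. Ptk6, a kinase of differentiating gut epithelium (chr2:181193721-181202789), had 6659 and 1502 normalized counts without and 489 and 637 with tetracycline (7.62-fold lower, -2.93). Pla2g4c, a phospholipase, had 117 and 38.7 against 11.52 and 11.01 (-2.86). Slc15a2, a peptide transporter (chr16:36750177-36784962), had 433 and 617 against 142 and 96.3 (-2.21), with library 2 the higher one without tetracycline. In these 3 genes the groups did not overlap, and without library 1 of the group without tetracycline Ptk6 stood at -1.50, Pla2g4c at -1.86 and Slc15a2 at -2.46.

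Pde2a, a phosphodiesterase, was listed under 2 identifiers that overlap on chromosome 7. The first (ENSMUSG00000030653.18, listed by GENCODE as Gm45837) had 338 and 682 normalized counts without and 37.9 and 0 with tetracycline (-4.82), and the second (ENSMUSG00000110195.2) 483 and 154 against 1003 and 671 (1.33). Their sum was 821 and 836 without and 1041 and 671 with tetracycline, a centred log2 of -0.02. Reads can be split between the identifiers, so neither difference is certain.

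By the rule 4 genes were passed over among the lowest because their libraries overlapped, namely Sprr2a3, Gkn1, Slc34a2 and Tff1. Gkn1, Tff1 and Gkn2, genes of the stomach surface, rested on 1 library in the group without tetracycline: Gkn1 had 0.92 and 139 normalized counts without and 0 and 24.8 with tetracycline. Slc34a2, an intestinal phosphate transporter, had 25109 and 3709 against 1606 and 4617 (-2.28), and stood at -0.34 without library 1 of the group without tetracycline. A list of 20 apical transporters and brush-border enzymes, written after the values had been seen, had 8 members lower by at least 1, against 1.09% of all members, and 1 below without overlap (Slc15a2), against 8.63%. Enpp7 (43212 and 5374 against 2588 and 9208, -2.11), which cleaves sphingomyelin, Slc5a8, a butyrate carrier (-1.98), and Slc9a3, the sodium-proton exchanger (-2.02), were of this kind. Without library 1 of the group without tetracycline these stood at 0.05, 0.05 and -0.44, and the list's median of -0.62 became 0.46. Within each group Enpp7 and Slc34a2 were higher in the library with the larger enterocyte marker sum. Across groups they did not follow it. Library 2 with tetracycline had the largest sum, 794321, but 9208 for Enpp7 and 4617 for Slc34a2. The part of enterocyte markers in these differences was not tested.

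Of the 12 genes named as furthest higher with tetracycline, 4 stayed past 1 without library 2 of the tetracycline group. Cyp2d9, a cytochrome P450 (chr15:82433437-82456845), had 114 and 115 normalized counts without and 144 and 1476 with tetracycline (6.74-fold higher, 2.75). Kmo, an enzyme of tryptophan breakdown (chr1:175620381-175662116), had 204 and 210 against 237 and 1933 (2.32). Without library 2 with tetracycline they stood at 0.33 and 0.19, so the size of these differences came from that library although neither overlapped. In the annotation Kmo overlaps the gene Fh1 and Cyp2d9 overlaps 4 genes, with which unstranded reads can be shared.

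Fabp6, the ileal bile acid binding protein (ENSMUSG00000020405.5, chr11:43596049-43601540), had 583 and 330 normalized counts without and 728 and 4434 with tetracycline, 5.38-fold higher (2.43), and 0.67 without library 2. In fed crypts its library values were far higher in each group, 13402 and 18584 without and 14357 and 9523 with tetracycline (-0.44). Nr0b2, which bile acids induce through their nuclear receptor, stood at 1.51 but overlapped (182 and 260 against 202 and 1121), and stood at -0.14 without library 2 with tetracycline. The ileal transporter Slc10a2 (-0.83) and the exporter Slc51b (-0.84) of the same list of 9 measured genes lay on the other side of 0, both overlapping. Without library 1 of the group without tetracycline they stood at 0.56 and 0.30. The list's median was -0.14, or 0.54 without that library and -0.78 without library 2 with tetracycline.

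Ankrd37, a gene induced by low oxygen (48.6 and 33.3 against 56.8 and 304, 2.06), Cemip, a hyaluronan-degrading protein (134 and 120 against 172 and 894, 1.997), Akr1c19, an aldo-keto reductase (3238 and 5678 against 6133 and 24318, 1.70), Hoga1, a mitochondrial aldolase (1.496), and Aqp8, a water channel (1.33), showed the same library pattern. Without library 2 with tetracycline they stood between 0.41 and 0.47. Akr1c19 overlaps the pseudogene Marcksl1-ps4, which moved alike (1.49). Ankrd37 overlaps the genes Lrp2bp and Ufsp2 in the annotation. Bex1 was high in the other tetracycline library (40.4 and 74.2 against 248 and 83.9, 1.47) and stood at 0.47 without it.

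Col3a1, Scd1 and Gsta5 stayed past 1 without library 2 with tetracycline. Scd1, which puts the double bond into saturated fatty acids, had 114 and 210 normalized counts without and 380 and 498 with tetracycline (1.37), and stood between 0.98 and 1.87 with any 1 library left out. Gsta5, a glutathione transferase that GENCODE lists as Gm10639, had 31.2 and 76.4 against 109 and 311 (1.895), between 1.01 and 2.67. Col3a1, a collagen of stromal cells, had 13.8 and 31.2 against 68.3 and 86.7 (1.72), between 1.23 and 2.41. Of the 10 stromal markers measured, Col3a1 alone passed 1 or lay above without overlap, and the list's median was 0.22. The naming rule passed over 4 genes here, Ugt1a9, Defa32, Flvcr2 and Nr0b2.

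A list of 23 genes of iron uptake and the low-oxygen response, written after the values had been seen, had 8 members higher and 1 lower, against 0.432% and 1.09% of all members, with a median of 0.34 that became -0.40 without library 2 with tetracycline. Tfrc, the transferrin receptor, had 15625 and 24435 normalized counts without and 31861 and 54561 with tetracycline (1.04, no overlap). Cybrd1, the duodenal iron reductase, had 505 and 459 against 725 and 1696 (1.26), Hif3a 134 and 203 against 290 and 495 (1.15) and Slc39a8, a metal importer, 983 and 1260 against 1378 and 3711 (1.11), all without overlap. Without library 2 with tetracycline Tfrc stood at 0.66, Cybrd1 at 0.58, Hif3a at 0.78 and Slc39a8 at 0.29. Slc11a2, the iron importer, had 3467 and 2891 against 2635 and 12245 (1.16) and overlapped, as did Ndrg1 (1.24), and without that library they stood at -0.28 and 0.09. Hmox1, which degrades haem, was the lower one (126 and 113 against 66.6 and 30.3, -1.36, no overlap), and stood at -0.85 without library 2 with tetracycline. Red blood cell genes had a median of 0.43 with all 5 above 0 and all overlapping, which became -1.37 without library 1 with tetracycline, and their part was not tested.

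Among 37 glutathione transferases, glucuronyltransferases and aldo-keto reductases, a list also written after the values had been seen, 6 were higher and 0 lower, against 0.432% and 1.09% of all members, with a median of 0.32 that became -0.12 without library 2 with tetracycline, and 5 lay above without overlap, against 6.95% of all. Gsta3 had 281 and 277 normalized counts without and 552 and 699 with tetracycline (1.09). The receptors, P450 enzymes and transferases of the xenobiotic list (28 of 29 genes) had a median of 0.18, or -0.76 without that library, and none past 1, with Gsta4 highest (4411 and 6136 against 3276 and 17560, 0.91, and -0.69 without that library).

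For comparison, the same 13194 genes in fed crypts, which are separate libraries, gave 456 (3.46%) higher and 85 (0.644%) lower with tetracycline. T lymphocyte markers were high in 1 fed tetracycline library, at 54365 and 71915 summed normalized counts without and 280794 and 69125 with tetracycline, 16 of 19 of them higher in the group mean, and their part was not tested. Of the 144 genes lower in fasted crypts, 24 were also lower in fed crypts, which is 16.7% of the fasted and 28.2% of the fed list, and 5 were higher there. Of the 57 higher genes, 7 were also higher in fed crypts (12.3% of the fasted and 1.54% of the fed list) and 4 were lower. The 144 genes had a fed median of -0.38 and a fasted one of -1.34, and the 57 had 0.10 and 1.24. These genes were chosen by their fasted values, so the fasted medians are large by construction and cannot be weighed against the fed ones. The defence list had a fed median of -0.41, with 2 of 22 lower.

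Gene by gene, Reg3g was lower in fed crypts too, at 7510 and 10323 normalized counts without and 2575 and 2329 with tetracycline (-1.88), and Reg3b stood at -1.85. Nos2 had 236 and 392 against 249 and 122 in fed crypts (-0.78), and Duox2 761 and 862 against 457 and 470 (-0.83). Alpk1 had 143 and 103 against 123 and 133 (0.03), and Clu 69.5 and 108 against 129 and 160 (0.69). For Clu both fed tetracycline libraries lay above the others, and for Alpk1 they lay between them.

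**Figure D5:**
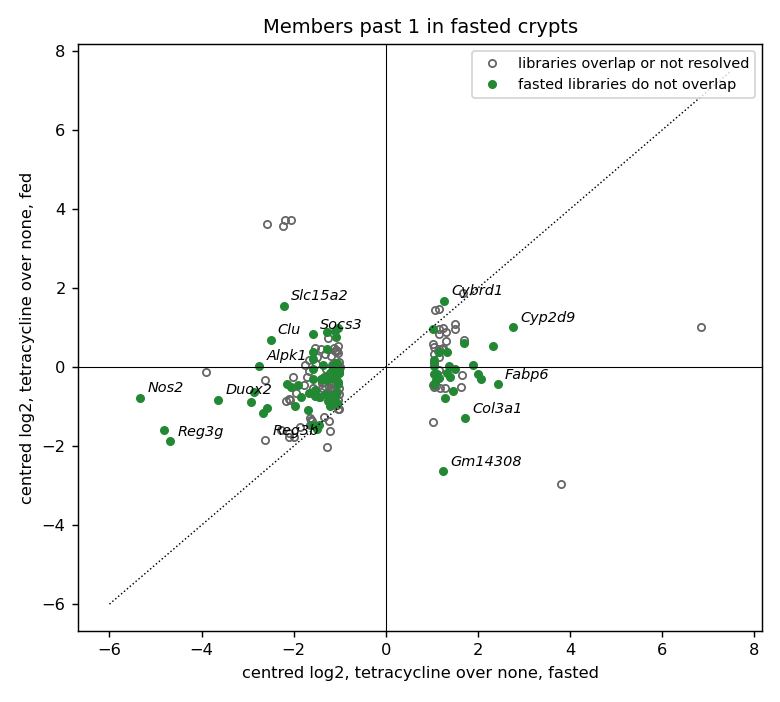
Centred log2 difference of tetracycline over none in fed crypts against that in fasted crypts for the 201 members past 1 in fasted crypts, filled where the fasted libraries do not overlap, with a dotted line of equal values. Nos2 lies at -5.34 and -0.78, Reg3g at -4.68 and -1.88, Clu at -2.50 and 0.69, and Gm14308 at 1.24 and -2.64.

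Whether the tetracycline difference in fasted crypts differed from that in fed crypts was tested for each gene by a Wald test on the difference of the deposited fasting changes, adjusted by Benjamini-Hochberg over 17571 genes. It shares the fasted values with the description above. Among the 13194 members 1 passed (0.00758%), the predicted gene Gm14308. An unadjusted p under 0.05 was reached by 129, fewer than the share of 0.05 expected where no gene differs.

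No gene of the defence, Reg or tuft lists passed at this setting. With the statistic scaled by its robust spread, Nos2 of the defence list passed. Slc15a2 came nearest among the lower genes, with a difference of -3.72 (SE 0.90, Benjamini-Hochberg adjusted p 0.0966 in the Wald test). Part of that difference lay in fed crypts, where Slc15a2 stood at 1.56 through 1 library. Its fed values were 69.5 and 91.4 normalized counts without and 413 and 65.8 with tetracycline. Alpk1 differed by -2.73 (SE 0.71, adjusted p 0.219), Nos2 by -4.51 (SE 1.32, adjusted p 0.766) and Fabp6 by 2.92 (SE 0.82, adjusted p 0.566). Clu, Reg3g and Duox2 had differences of -3.14 (SE 1.10), -2.75 (SE 1.04) and -2.76 (SE 1.24), each with an adjusted p of 0.99997. For these genes the test at this setting neither shows a difference nor shows that there is none. With the robust scaling the Benjamini-Hochberg adjusted p of the Wald test was 1.78e-05 for Slc15a2, 0.000136 for Alpk1, 0.000977 for Fabp6, 0.00212 for Nos2 and 0.0417 for Clu. The scaling lowered the adjusted p of each of these genes, and its calls can rest on 1 library. It also called the pseudogene Gm12918 (adjusted p 0.00207 in the same test), at 0 and 0 fasted normalized counts without and 723 and 0 with tetracycline.

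The authors' deposited tables give the fasting change behind these values. Clu rose on fasting by 4.32 (SE 0.98, DESeq2 adjusted p 0.00128) without tetracycline and its fold change was 1.18 (SE 0.50, adjusted p 0.682) with it in the authors' deposited tables. The fold changes of Alpk1 were 2.15 (SE 0.50, adjusted p 0.0019) and -0.58 (SE 0.50, adjusted p 1), and those of Socs3 1.995 (SE 0.38, adjusted p 3.96e-05) and -0.36 (SE 0.50, adjusted p 1) in the authors' deposited tables. Tifa had log2 fold changes of 2.20 (SE 0.47, adjusted p 0.000335) and 0.53 (SE 0.42, adjusted p 1) in the authors' deposited tables. Reg3b rose on fasting in both groups, by 4.56 (SE 0.91, adjusted p 0.000112) without and 3.84 (SE 0.78, adjusted p 0.000415) with tetracycline in the authors' deposited tables. Gsdmc4 fell in both, with log2 fold changes of -2.98 (SE 0.31, adjusted p 1.15e-18) and -4.47 (SE 0.63, adjusted p 2.25e-09) in the authors' deposited tables. Duox2 had log2 fold changes of 0.88 (SE 1.17, adjusted p 0.903) without and -1.87 (SE 0.41, adjusted p 0.00196) with tetracycline in the authors' deposited tables. Tfrc had the larger value with tetracycline, 0.43 (SE 0.29, adjusted p 0.678) without and 1.94 (SE 0.50, adjusted p 0.0249) with tetracycline in the authors' deposited tables.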

How the data were processed

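RNA-seq of small-intestinal crypts was used as 2 deposited tables of fasted against fed mice, 1 without and 1 with tetracycline. Per the submitters' processing notes, Salmon, DESeq2 and the build mm10 were used, with no versions given. The column names are those of the authors' DESeq2 output. The deposited mean is a signal, counts over size factors averaged over a table's libraries. The deposited fold change and standard error are log2 values, the deposited statistic is a score, and the deposited p-values carry a Benjamini-Hochberg adjustment. Fold changes were read as fasted over fed from the tables' names. There were 0 unused per-sample columns.

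Fasted means were rebuilt as 2 times the mean minus the fed mean that the fold change implies, and a mean of at most 3 was set to 3 (3 members). A deposited mean adds up each library's whole count divided by its size factor, so counts were recovered as the set that gives the mean, or, among several, the deposited fold change. This resolved 99.98% and 99.99% of genes with a mean up to 99999. Recovery, the rebuilt means and the Wald test were checked on simulated data. No count model was run.

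The members, lists and rules were chosen with earlier results of these data known. Named genes are the 12 highest and 12 lowest with a symbol, without predicted genes, pseudogenes and receptor segments, passing over those with overlapping libraries, then the Reg, defence and mitochondrial lists and examples of other lists. Symbols are those of the deposited files, filled from GENCODE for 696 members without one, and the naming rule used them. Types and coordinates are from GENCODE mouse release M21 (GRCm38), matched without version for 99.3% of identifiers. Python 3 with numpy, pandas and scipy was used. Alternatives were other centring, filters, pseudocounts, thresholds and left-out libraries. Salmon estimates, which are not strand-specific here, can move reads among copies.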

Additional observations from a re-analysis of the deposited data

Results flagged for a closer look

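For Gm14308, a predicted gene with close copies nearby, a test between the fed and fasted groups found a difference: the tetracycline effect in fasted crypts exceeded that in fed crypts by 3.93 (SE 0.82, Benjamini-Hochberg adjusted p 0.00842 over all genes in the Wald test). Its normalized counts were 145 and 66.7 in fasted libraries without and 313 and 212 with tetracycline, and 67.5 and 277 in fed libraries without and 26.0 and 30.2 with it. Reads can be split among its copies.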

How the results depend on the processing

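Leaving out each fasted library in turn gave 124 to 438 higher and 52 to 1087 lower genes against 57 and 144. Ribosomal centring gave 31 higher and 236 lower, and 11 and 140 without overlap against 26 and 66. A mean of at least 20 gave 98 higher, and of at least 200 gave 33 higher and 92 lower. No filter with pseudocount 1 gave 932 and 1091, and a log2 of at least 2 gave 6 and 27, by construction for the stricter limits. The remaining 16 of 37 alternatives for counts, including size factors set jointly over the 4 fasted libraries (chosen after seeing the data, as were those for overlap), stayed within 1.5 times. The Wald test called 17 members after scaling by the robust spread of its statistic and 2 at an adjusted p under 0.1. Where not stated, the cause was not tested.

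Of 187 alternatives for the 12 highest and 12 lowest named genes 20 moved by more than the spread between libraries and 0 changed sign. Genes named from the lists did change sign with 1 library left out, among them Reg1, Reg3a, Reg4, Sprr2a1, Sprr2a2 and Il22ra1. Of 407 for list medians 13 moved by more than the median spread between libraries and 1 more reversed, while 77 lay on the other side of 0, mostly with 1 library left out. The gastric median of -1.19 ranged from -2.025 to 2.27 with 1 library left out, above 0 without library 2 of the group without tetracycline. No paired analysis was possible because the labels give no replicate numbers. Counting error, 2 libraries a group and separate scaling limit every value here.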
